A study of Triticum aestivum with 6 samples.

Results

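Of the 114264 IDs in a transcript table of bread wheat roots, 7 were at modest levels in every non-mycorrhizal library, higher in every mycorrhizal library, and spread at least 4-fold among the mycorrhizal libraries themselves. They were chosen by limits on the measured values of both groups. IDs starting with Traes_ or TRAES3BF, which carry a chromosome or chromosome arm in their name, were kept (100231 IDs). All 3 values of the non-mycorrhizal group (NM) had to be at least 2 and under 50 FPKM, a level scaled by transcript length and library size. The lowest value of the mycorrhizal group (AM) had to exceed the highest NM value but stay under 8 times it, and the highest AM value had to be at least 4 times the lowest. Apart from the last limit, 6701 IDs met these conditions, with identical IDs counted once, and the 7 uneven ones made up 0.104% of them. The 6701 are called raised IDs below, by these limits and not by a test. The same values chose the 7 IDs, so their rise and their spread are given below as a description, without a test.

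The roots came from wheat of the cultivar Chinese Spring, grown in pots of steam-sterilized soil and quartz sand. The AM samples (3 libraries) had received an arbuscular mycorrhizal inoculation, with Rhizophagus irregularis named as the fungus in the series title, and the NM samples (3 libraries) had not. The sample titles add that a molecular signal was given to AM and not to NM, without naming it. Neither the age of the plants nor the share of root length colonized is given in the labels. Markers of root tissue could not be looked up, because the IDs matched no gene name.

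Arbuscular mycorrhizal fungi grow from soil into the root cortex and form branched arbuscules inside cortical cells, where the plant takes up phosphate and other nutrients and the fungus receives sugars and lipids. Root cells around a growing hypha switch on plant genes for fungal accommodation, nutrient transport and defence, and colonized and uncolonized stretches lie next to each other in one root system. Wheat is hexaploid, with A, B and D subgenomes, so that most genes exist in several related copies.

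The 7 IDs lay on 6 chromosomes or arms, and 2 of them shared the arm 5AL. By subgenome, 2 belonged to A, 1 to B and 4 to D, while the 6701 raised IDs divided into 32.9% A, 34.5% B and 32.5% D. With 7 IDs, no share of a subgenome can be read from these numbers. None of the 7 was found in the reference gene table, so what they encode is not given here, and whether any 2 are copies of one gene is not known. No 2 of them had values agreeing within 1% in all libraries.

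The order of the AM libraries was nearly the same in all 7 IDs. AM replicate 3 was highest in 7 of 7, AM replicate 2 was lowest in 6 of 7, and AM replicate 1 was lowest in 1. Summed over the 7 IDs, NM replicates 1, 2 and 3 held 62.6, 39.0 and 39.1 FPKM, while AM replicate 1 held 285 FPKM, replicate 2 held 118 FPKM and replicate 3 held 558 FPKM. Relative to the NM mean of the same ID, the level was between 7.35 and 26.0 times as high in AM replicate 3, between 1.77 and 9.25 times in replicate 1 and between 1.60 and 4.59 times in replicate 2. Each of the 7 was therefore several-fold above its NM mean in AM replicate 3, and the distance from NM was small for some in replicate 2. In whole roots, more cells with the transcript and more transcript per cell cannot be told apart. The rule sets the highest AM value against the lowest, so the choice of these IDs rests by construction on the libraries at both ends. Only 1 ID met the rule without AM replicate 2 and 1 ID without AM replicate 3. Within the shared order, 4 IDs had AM replicate 3 standing alone, at 2 times replicate 1 or more, and 3 IDs had replicates 1 and 3 close together and replicate 2 apart.

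**Figure D1:**
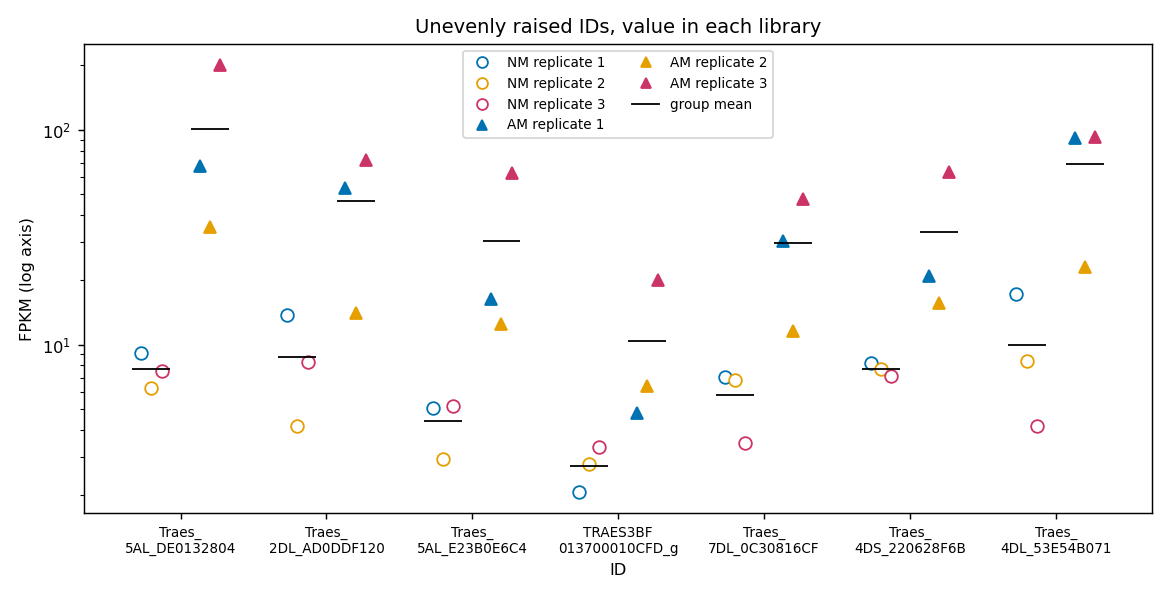
FPKM on a log axis of the 7 IDs in each library, with open circles for NM, filled triangles for AM and bars for the group means. The triangle of AM replicate 3 is the highest point of every ID, and that of AM replicate 2 is the lowest triangle in 6 of 7.

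Traes_5AL_DE0132804 had the widest spread and the highest AM level of the 7. In replicates 1, 2 and 3, in that order here and below, its NM values were 9.17, 6.28 and 7.56 FPKM and its AM values 67.54, 35.21 and 199.43 FPKM. The AM mean was 100.7 ± 87.0 FPKM (SD, n = 3) against 7.67 ± 1.45 (SD, n = 3) in NM, a ratio of means of 13.1. Even the lowest AM library was 3.84 times the highest NM library, the widest gap between the groups among the 7. The AM libraries ranged 5.66-fold and the NM libraries 1.46-fold.

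Traes_5AL_E23B0E6C4, on the same arm, had a similar shape at a lower level. Its NM values were 5.09, 2.92 and 5.19 FPKM, and its AM values were 16.31, 12.5 and 62.68 FPKM. AM replicate 3 was 3.84 times replicate 1, while replicates 1 and 2 differed 1.30-fold. The lowest AM value was 2.41 times the highest NM value.

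Traes_4DS_220628F6B had the tightest control values of the 7, at 8.22, 7.66 and 7.1 FPKM, a range of 1.16-fold. In AM it was listed at 20.9, 15.63 and 63.86 FPKM. AM replicate 3 again stood alone, at 3.06 times replicate 1 and 4.09 times replicate 2. The spread of this ID was thus far wider in AM than in NM, with a standard deviation of 1.07 in AM and 0.11 in NM on the log2 scale.

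The chromosome 3B ID TRAES3BF013700010CFD_g was the least abundant of the 7, at 2.06, 2.77 and 3.34 FPKM in NM and 4.81, 6.44 and 20.01 FPKM in AM. It was the only one of the 7 with its lowest AM value in replicate 1. AM replicate 3 was 4.16 times replicate 1, and the lowest AM value was 1.44 times the highest NM value. The name of a TRAES3BF ID gives its scaffold and its number along it, and 7 IDs of the table belonged to scaffold 013700. The ID numbered next, TRAES3BF013700020CFD_g, which was named after its values had been seen, had NM values of 0, 0.12 and 0.25 FPKM and AM values of 14.44, 14.53 and 38.02 FPKM. Its replicate 3 was therefore also the highest AM library, at 2.63 times replicate 1. The third ID in that numbering, TRAES3BF013700030CFD_g, was at 30.58, 29.89 and 30.62 FPKM in AM, with no such spread. In the IDs numbered 40, 50 and 60, AM replicate 2 was the highest AM library. In the ID numbered 70 it was AM replicate 3, at 1.13 times replicate 1. Whether the first pair of IDs shares reads was not tested.

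**Figure D2:**
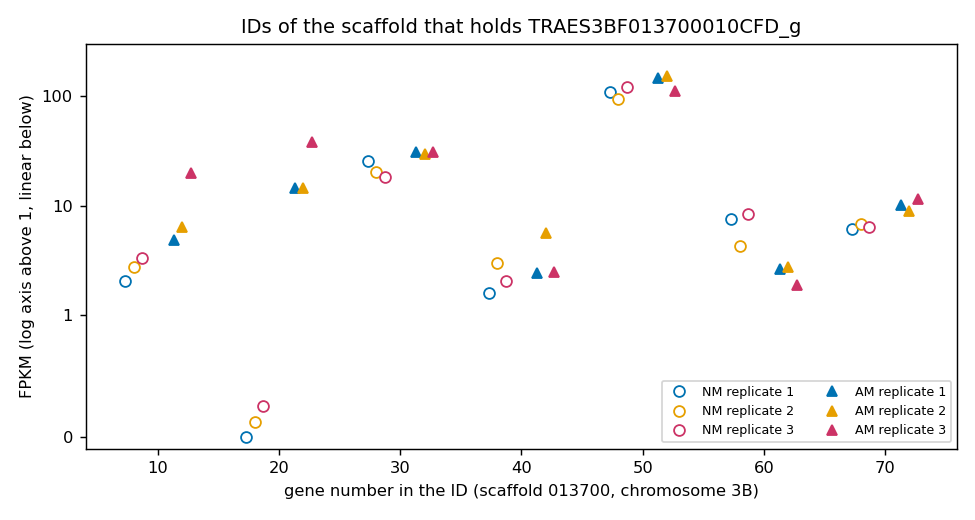
FPKM (log axis above 1, linear below) of the 7 IDs of scaffold 013700 on chromosome 3B by the gene number in the ID, with open circles for NM and filled triangles for AM. In the IDs numbered 10 and 20, AM replicate 3 lies well above the other AM libraries, and in the ID numbered 30 the AM libraries coincide.

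In the other 3 IDs, AM replicates 1 and 3 were both high and replicate 2 was low. Traes_7DL_0C30816CF had NM values of 7.09, 6.84 and 3.47 FPKM and AM values of 30.35, 11.5 and 47.42 FPKM. AM replicate 3 was 1.56 times replicate 1, and replicate 1 was 2.64 times replicate 2.

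The NM values of Traes_2DL_AD0DDF120 were 13.68, 4.19 and 8.32 FPKM, against AM values of 53.53, 13.95 and 71.95 FPKM. The groups barely separated, since AM replicate 2 was 1.02 times NM replicate 1. After the libraries were rescaled by their median ratios, this ID no longer met the rule. Its NM libraries ranged 3.26-fold, the 47th widest NM range among the 6701 raised IDs.

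For Traes_4DL_53E54B071 the NM libraries gave 17.24, 8.37 and 4.16 FPKM and the AM libraries 91.77, 22.92 and 92.51 FPKM. AM replicates 1 and 3 were within 1.01-fold of each other, and replicate 3 was 4.04 times replicate 2. The NM libraries ranged 4.14-fold, slightly more than the 4.04-fold range in AM, so the spread of this ID was as wide without the fungus as with it. This was the 10th widest NM range among the raised IDs.

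In 4 of the 6 libraries, the values of Traes_2DL_AD0DDF120 and Traes_4DL_53E54B071 stood in ratios of whole numbers up to 12. Within the rounding of the table, the first stood to the second as 1 to 2 in NM replicate 2, 2 to 1 in NM replicate 3, 7 to 12 in AM replicate 1 and 7 to 9 in AM replicate 3. No such ratio held in NM replicate 1, where it was 0.794, or in AM replicate 2, where it was 0.609. This pair was singled out after its values were seen, as the one with the most such libraries among the 21 pairs of the 7 IDs, of which 9 had such a ratio in at least 1 library. The 8 other pairs among these 9 had it in 1 or 2 libraries. How often such ratios occur among other IDs was not counted, and the transcript lengths by which FPKM is scaled are not known here. The number of fragments behind the values is not known, and the part of counting error in the spread of these IDs was not tested.

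The 7 differed from one another in how far the NM libraries lay apart. The ratio of highest to lowest value in NM was under 2 in 4 IDs and 2 or more in 3, with a median of 1.78, against a median of 1.27 among the 6694 raised IDs under the limit. NM replicate 1 was highest in 5 of the 7 and NM replicate 3 in 2. The NM mean of the 7 lay between 2.72 and 9.92 FPKM, so none came from the upper part of the permitted range. Of the 6701 raised IDs, 2347 had a mean of 10 FPKM or more. With 7 IDs, no preference for a level can be read from this. The raised IDs with an NM mean of 2 to 5 FPKM reached a 2-fold AM range in 4.55% of cases and those of 5 to 10 FPKM in 4.73%. Those of 10 to 20 FPKM did so in 2.75% and those of 20 to 50 FPKM in 2.10%.

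**Figure D3:**
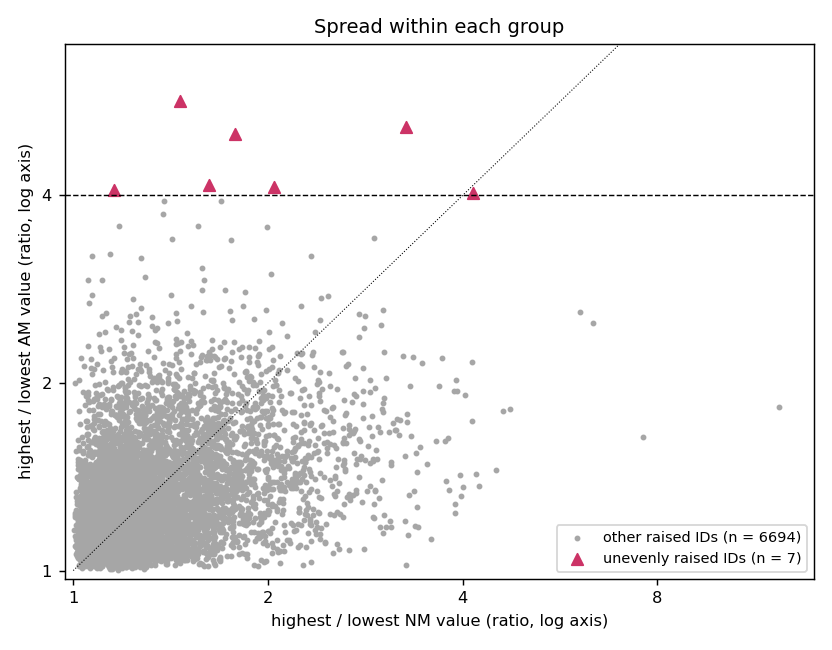
Ratio of the highest to the lowest value within AM (vertical) and within NM (horizontal), both on log axes, for the 6701 raised IDs. The 7 uneven IDs, as triangles, lie above the dashed limit of 4, and 1 of them lies on the right of the dotted line of equal spread, with a ratio of 4.14 in NM and 4.04 in AM.

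The 7 IDs are the tail of a continuous range. The median AM ratio among the other 6694 raised IDs was 1.27, with quartiles of 1.15 and 1.47. Just inside the limit lay Traes_4DL_53E54B071 at 4.04 and Traes_4DS_220628F6B at 4.09. Just outside lay Traes_5AL_820518D2D at 3.92, with 23.06, 5.88 and 16.95 FPKM in AM, and Traes_4DL_BFCA8DDB5 at 3.92, with 43.22, 22.69 and 11.03 FPKM. Both IDs just outside had AM replicate 1 highest, unlike the 7. AM replicate 2 was lowest in the first, as in 6 of the 7, and replicate 3 in the second.

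A high AM replicate 3 was common among raised IDs in general. It was the highest AM library in 53.1% of the 6694 raised IDs under the limit, in 71.7% of the 1245 IDs with a range of 1.5 to 2-fold, in 76.7% of the 240 with 2 to 3-fold and in 9 of the 14 with 3 to 4-fold. AM replicate 2 was lowest in 36.3% of the 6694, in 42.0% of those with 1.5 to 2-fold, in 46.7% of those with 2 to 3-fold and in 9 of the 14 with 3 to 4-fold. In the same order, AM replicate 1 was lowest in 41.5%, 44.2%, 42.9% and 4 of the 14. The median level relative to NM in the 6694 was 1.47, 1.49 and 1.59 for AM replicates 1, 2 and 3, so replicate 2 was not the lowest library there. In the 7 the corresponding medians were 5.23, 2.31 and 8.34.

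**Figure D4:**
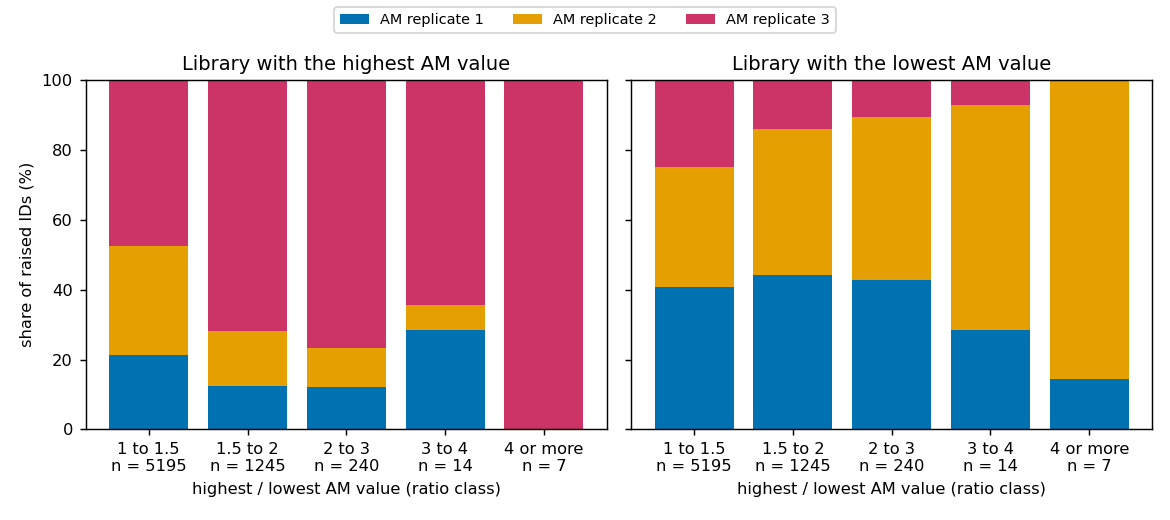
Share of raised IDs (%) in which each AM library was the highest (left) or the lowest (right), by class of the ratio of highest to lowest AM value. AM replicate 3 is highest in 47.6% of the IDs with the least spread and in 7 of 7 with a ratio of 4 or more, where replicate 2 is lowest in 6.

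Among IDs at the same NM level that were not raised in every AM library, a library other than AM replicate 3 was mostly the highest. In all, 1174 IDs at 2 to under 50 FPKM in NM had a highest AM value at least 4 times the lowest. Of these, 429 were below NM in every AM library and 737 overlapped NM. The other 8 were above NM in every AM library. They are the 7 and 1 more ID, left out by the rule because its lowest AM value was 8 times the highest NM value or more. In that ID, AM replicate 2 was the highest AM library and replicate 1 the lowest, unlike the 7. An ID with no FPKM in an AM library also meets the 4-fold limit, so some of the 1174 may have no defined fold range. Ties were given to the lower replicate number. AM replicate 2 was the highest AM library in 66.7% of the 429, and AM replicate 1 in 59.8% of the 737. The lowest was AM replicate 3 in 51.7% of the 429 and, as in most of the 7, AM replicate 2 in 49.9% of the 737. Hence AM replicate 2 was the library nearest to NM in most of the unevenly raised and in most of the unevenly lowered IDs. The part that a property of this library has in the spread of the 7 IDs was not tested.

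The rule was also applied with AM and NM exchanged, which selects IDs uneven in NM and lower in every AM library. Of these, 8 IDs qualified out of 5666 within the other limits (0.141%), against 7 of 6701 (0.104%). In those 8 IDs, NM replicate 3 was lowest in 6 and highest in 2. Among XLOC and EPlTAEG IDs, which the rule leaves out, 773 met the other limits and 0 had a 4-fold AM range.

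Fitted over all 64974 tested IDs, the log2 fold change of the 7, on the log2(FPKM + 1) scale, ran from 1.39 to 3.21 with standard errors of 0.47 to 0.67. The median standard error was 0.58 for the 7 and 0.18 for all tested IDs. In limma with Benjamini-Hochberg adjustment, 4 of the 7 were called higher in AM at the 0.05 threshold, where 11.2% of all tested IDs were. Every AM value above every NM value, which the rule required of the 7, held for 22.6% of tested IDs. The highest AM value was at least 4 times the lowest in 7.26%, which can include IDs with no FPKM in an AM library. Since the rule used this contrast, nothing is read from these counts. Without AM replicate 2, 6 of the 7 were called, and TRAES3BF013700010CFD_g was the exception. Without AM replicate 3, 3 of the 7 were called, namely Traes_5AL_DE0132804, Traes_5AL_E23B0E6C4 and Traes_4DS_220628F6B. The last of these was not called with all libraries. Without NM replicate 2 none was called in limma (0 of 7), although 5 of the 7 had an unadjusted p under 0.05. Without NM replicate 3 or AM replicate 1 only Traes_5AL_DE0132804 was (1 of 7), and without NM replicate 1 that ID was called together with Traes_4DL_53E54B071 (2 of 7).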

How the data were processed

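RNA of roughly 100 mg of root was sequenced in pairs of 150 bp reads, with all libraries in 1 lane, per the labels' protocols. The authors deposited 1 FPKM column per library with 2 decimals, per the file headers, and 0 columns were left unused. Per the submitters' processing notes, the tools included RSEM, Cufflinks, TopHat2 and edgeR, with no version and no order. The build is not given in the sources used here. Summed FPKM ranged from 1136829 to 1193206 per library, and 60145 to 64490 IDs reached 1 FPKM. Read counts were not used here, so depth is unknown and no counting interval is given. None of the IDs matched the reference table (0 of 114264 against 155467 genes).

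The 7 IDs were selected by the stated limits in Python 3.11.15 with pandas 2.3.3. All were named, by the rule that up to 30 members are. The groups were compared with limma 3.58.1 in R 4.3.3, using log2(FPKM + 1) and a trended prior variance, without a block. An ID entered the fit when 3 or more libraries reached 1 FPKM. This limma step was checked on simulated data with known changes. The members, limits and lists were chosen with earlier results of these data known. The replicates are called biological in the design text. The alternatives were other limits, pseudocount 0.1, no filter, rescaling, a replicate block and each library left out.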

Additional observations from a re-analysis of the deposited data

How the results depend on the processing

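The rule's limits set how many IDs qualified. The 7 IDs became 21 with an AM ratio of 3 (AM replicate 1, 2 or 3 highest in 4, 1 and 16), 0 with a ratio of 6 (0 in replicate 3), 17 with an NM floor of 1 FPKM (1, 3 and 13), 2 with a floor of 5 FPKM (2 in replicate 3), 4 with the lowest AM value at least 1.5 times the highest NM value (4 in replicate 3), and 261 with a ratio of 2, a setting chosen after the results were seen (33, 28 and 200). With 1 library left out, 1 to 15 IDs qualified, with AM replicate 1, 2 or 3 highest in 0 to 4, 0 to 2 and 1 to 12. All 7 qualified without any one NM library, joined by 8, 5 and 5 other IDs without NM replicates 1, 2 and 3. Without AM replicate 1, 6 of the 7 qualified, without AM replicate 2 only TRAES3BF013700010CFD_g and without AM replicate 3 only Traes_4DL_53E54B071 (1 each). Rescaling kept 6, and including XLOC loci or identical IDs kept 7. Of the 7, 1 was called higher in limma with no filter on low values, 3 after rescaling, 4 with pseudocount 0.1 and 0 to 6 with 1 library left out. Over all IDs, 7272 were higher and 4637 lower in AM, against 6350 and 5396 after rescaling, and 4089 to 6065 and 2124 to 4071 with 1 library left out. With the replicate block the counts were 6323 and 4094, and 4 of the 7, with Traes_2DL_AD0DDF120 in place of Traes_7DL_0C30816CF. Deviations from the group mean correlated between equal replicate numbers at 0.124, 0.0708 and 0.0437, for each library its highest correlation across the groups. Only 1 of the 3 exceeded 0.1. Deviations within a group cancel out, so these correlations are not independent of one another. The sample titles name no pairing, and none is read from these values. Stricter limits and fewer libraries by construction change what can qualify. The cause of the other shifts was not tested. Depth is unknown, so how far counting error limits the low values is not given.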
